A study of Mus musculus with 54 samples.

Results

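The genes described are the BK and SK calcium-activated potassium channels of the mouse suprachiasmatic nucleus (SCN), the hypothalamic clock. They were chosen by symbol, as the rows of the count table for *Kcnma1*, *Kcnmb1*, *Kcnmb2*, *Kcnmb4*, *Kcnn1*, *Kcnn2*, *Kcnn3* and *Kcnn4*, which is 8 of the 30031 genes counted. All 8 were in the table and all 8 passed the filter on low counts. RNA was sequenced from SCN tissue cut out by laser-capture microdissection at 6 timepoints of a light/dark cycle (ZT2, ZT6, ZT10, ZT14, ZT18 and ZT22, in hours of Zeitgeber time). All groups were singly housed male C3H/HeH mice of 10–12 weeks, and the labels name no altered allele and no agent. Each timepoint had 3 biological replicates (A, B and C), each a pool of 5 mice, so the spread between mice within a pool was not measured. Each pool was sequenced as 3 technical replicates, which gave 54 samples and 18 libraries.

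Both channel families open when calcium rises inside the cell and let potassium leave, which brings the membrane back towards rest after an action potential. BK channels (large conductance) need calcium and depolarization together and act during and just after the spike. Their pore is encoded by *Kcnma1*, and auxiliary beta subunits tune how fast and at which voltage it opens and closes. SK channels (small conductance) are opened by calcium alone, through calmodulin bound to the pore subunit, and carry the slower afterhyperpolarization that spaces spikes. SCN neurons fire faster by day than by night, and BK current is one of the currents known to differ between these phases. The question put to the counts was which of these genes differed between timepoints, and whether they moved together.

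Counted reads ranged from 15412981 in ZT18 replicate C to 35820945 in ZT14 replicate A, with a median of 25075231. Values are given as CPM, reads scaled to the library total (edgeR's TMM scaling included). As the study's own principal component plot shows them, the libraries formed 3 clusters, of which one joins ZT6 to ZT10, another ZT14 to ZT18 and the last ZT2 to ZT22, and its legend names both timepoint and sequencing batch. The labels give no sequencing batch for any library, so whether batches follow these clusters is not known. A difference between clusters could therefore not be told apart from one between batches in these data. The paper states, from the timing of its clock genes, that batch effects were minimal. It also reports high concordance of its sequencing with quantitative PCR of the laser-captured samples. The comparisons of ZT10 with ZT6, ZT18 with ZT14 and ZT2 with ZT22 lie inside a cluster. ZT6 and ZT10 also stand apart in a second way, since the reads behind a second, normalized table matched the counts for 92.7% to 94.2% of genes with a read at the other timepoints but for 8.72% to 12.1% at these. ZT18 replicate C was the shallowest library and held the lowest *Kcnma1* level and no *Kcnmb2* read. SCN markers were present in all 18 libraries, with a summed level of 8 SCN neuron genes between 1520 CPM and 5222 CPM. The 5 telencephalic excitatory neuron genes, which mark other forebrain tissue, summed to between 16.3 CPM and 217.5 CPM.

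*Kcnma1*, the BK pore, had the most reads of the members and the highest mean level per length over the 18 libraries, with its highest mean at ZT22 and the lowest at ZT18. That rank pools the timepoints. Per length of the union of annotated exons, *Kcnma1* was below *Kcnmb2* in ZT2 replicates A and B and below *Kcnmb4* in ZT10 replicates B and C, among others. The ZT2 cases depend on the length chosen. The *Kcnma1* gene (ENSMUSG00000063142) lies on the minus strand at chr14:23289431-24014491 of GRCm38 and has 38 annotated transcripts. The study designed a primer pair to read *Kcnma1* by quantitative PCR, and the pair is shown because it marks which part of the transcript an assay other than these counts would read. The forward primer lies at chr14:23463114-23463133 and the reverse primer at chr14:23451613-23451635, each within an exon. Both sites are found in 32 of the 38 transcripts, in coding sequence in 30 of them, and span 88 bases of transcript. The primers read, 5′ to 3′:
Kcnma1 forward: cttcgtgggtctgtccttcc
Kcnma1 reverse: ggcagacttgtactcaatggcta

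By day, *Kcnma1* stood at 79.0, 105 and 88.5 CPM at ZT2, at 72.4, 68.0 and 50.4 CPM at ZT6, and at 60.9, 54.9 and 54.8 CPM at ZT10 (replicates A, B and C). By night it stood at 76.1, 56.6 and 85.5 CPM at ZT14, at 51.4, 46.0 and 22.8 CPM at ZT18, and at 79.5, 131.9 and 118 CPM at ZT22. Every ZT22 library was above every ZT18 library, and the ZT22 and ZT2 libraries overlapped. In order from ZT22, the means were 109.9 ± 27.2, 90.9 ± 13.3, 63.6 ± 11.6, 56.8 ± 3.48, 72.8 ± 14.8 and 40.1 ± 15.2 CPM (SD, n = 3 each). The highest mean was 2.74 times the lowest. *Kcnma1* rose from ZT18 to ZT22 by 1.45 ± 0.27 on the log2 scale (SE, edgeR adjusted p = 0.000952), and it was the only member called there, 1 of 8, where 18.1% of all 18941 genes tested were called. That step crosses from one cluster of libraries to another. Inside a cluster, ZT18 was lower than ZT14 by a log2 difference of -0.86 ± 0.27, which had an unadjusted p of 0.00484 and did not pass after adjustment (edgeR adjusted p = 0.147).

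The mean of the 3 night timepoints and the mean of the 3 day timepoints of *Kcnma1* differed by a log2 value of -0.01 ± 0.15 (edgeR adjusted p = 0.983), a difference smaller than its error. Its means had 2 separate highs, at ZT14 and at ZT22 to ZT2. The mean of ZT14 and ZT22 stood above that of ZT18 and ZT2 by 0.57 ± 0.19 (log2, SE), an adjusted p of 0.239 by edgeR. JTK_CYCLE, which looks for one rise and fall in 24 hr, gave *Kcnma1* p = 0.332 (exact null distribution). The telencephalic markers moved with *Kcnma1* over the night, with summed levels of 87.3 to 195.5 CPM at ZT14, 24.3 to 60.1 CPM at ZT18 and 56.5 to 217.5 CPM at ZT22, and their part in the result was not tested. In a pooled tissue sample, more cells of a type and more RNA per cell cannot be told apart.

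**Figure D1:**
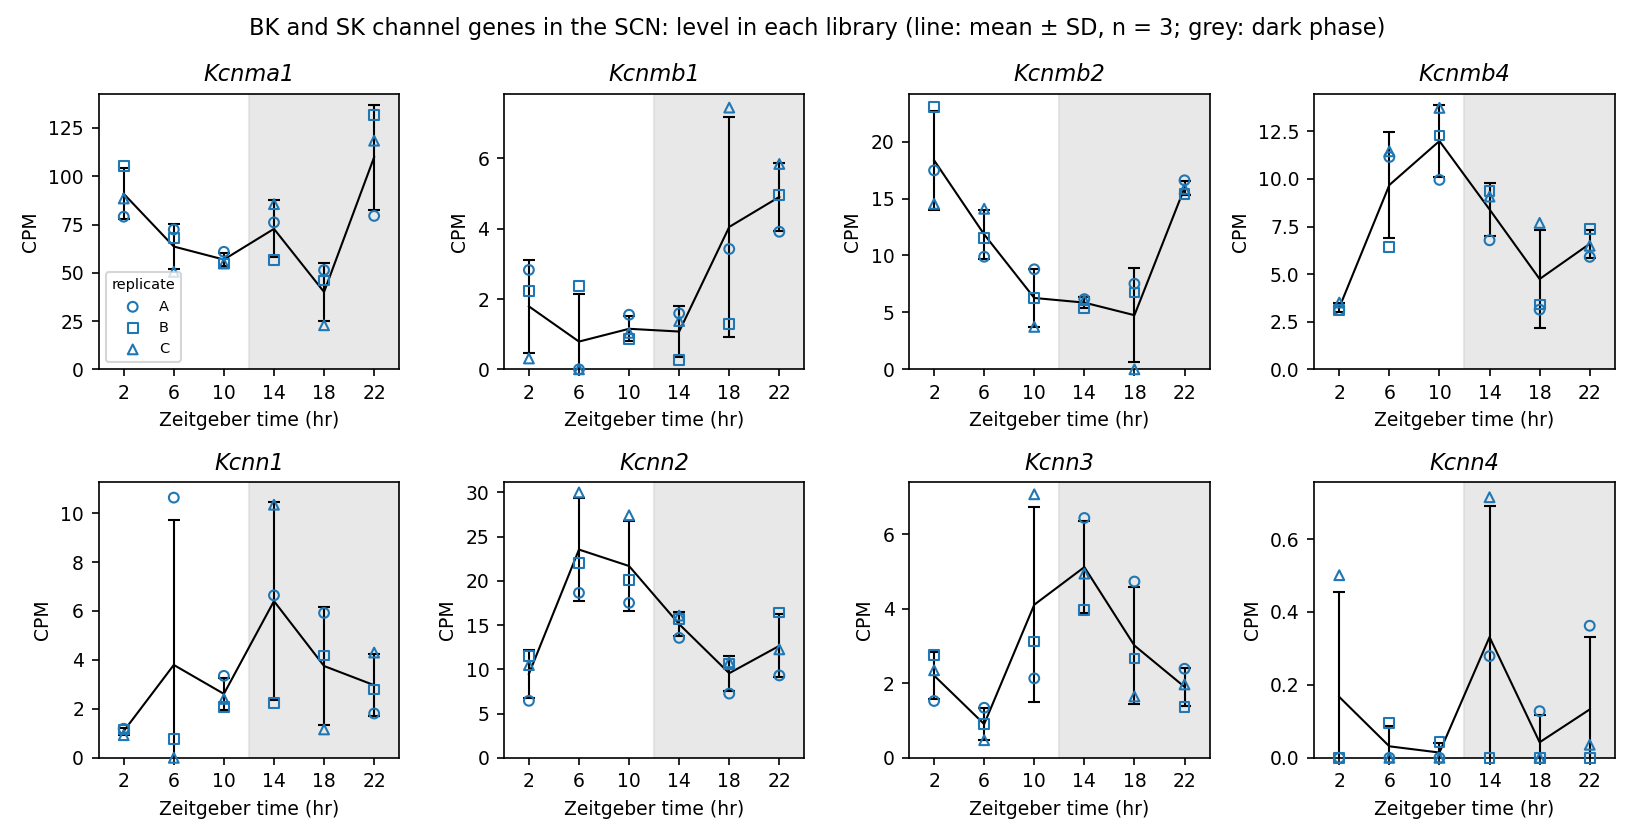
Level of each of the 8 genes in CPM (y axis, own scale per panel, starting at 0) against Zeitgeber time in hours (x axis). Symbols are the 3 libraries of a timepoint, the line joins their means, bars are ± SD, and grey is the dark phase. *Kcnma1* is highest at ZT22 and lowest at ZT18, whereas *Kcnmb4* and *Kcnn2* are lowest at ZT2 and high at ZT6 and ZT10.

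The BK beta subunits had their highest means at different timepoints. *Kcnmb4*, the beta4 subunit typical of neurons, which slows the gating of BK channels, was lowest at ZT2 and highest at ZT10. The gene (ENSMUSG00000054934) is on the minus strand at chr10:116417861-116473878. Its level was 3.11, 3.10 and 3.51 CPM at ZT2, 11.2, 6.44 and 11.5 CPM at ZT6, and 9.95, 12.3 and 13.7 CPM at ZT10. After lights off it was 6.78, 9.35 and 9.07 CPM at ZT14, 3.13, 3.40 and 7.69 CPM at ZT18, and 5.91, 7.38 and 6.49 CPM at ZT22. All ZT6 and ZT10 libraries were above all ZT2 libraries, while ZT18 replicate C lay well above the other ZT18 libraries and inside the range of ZT14. *Kcnmb4* rose from ZT2 to ZT6 by 1.58 ± 0.39 (log2, SE, edgeR adjusted p = 0.00474), a step between clusters of libraries. Its highest mean, 12.0 ± 1.91 CPM at ZT10, was 3.70 times its lowest, 3.24 ± 0.23 CPM at ZT2 (SD, n = 3).

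*Kcnmb4* was also the member with the smallest p in the contrast that sets ZT14 and ZT22 against ZT18 and ZT2, each against the other timepoint of its own cluster. That difference was 0.93 ± 0.27 (log2, SE), with an unadjusted p of 0.00347 and an edgeR adjusted p of 0.174. The antisense genes *Kcnmb4os1* and *Kcnmb4os2* overlap exons of *Kcnmb4* by 355 and 693 bases. They held 98 and 268 reads over all 18 libraries, and as the counting is not stated to use strand, reads in the shared bases cannot be assigned with certainty. The same limit holds for *Kcnma1*, whose exons *4930519K11Rik* overlaps by 1016 bases. It also holds for *Kcnn2*, whose exons *AC121957.1* and *A330093E20Rik* overlap by 323 and 284 bases. These genes lie on the opposite strand and were not counted separately.

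*Kcnmb2*, the beta2 subunit, which lets BK channels inactivate, had its highest mean at ZT2 and its lowest at ZT18. *Kcnma1* also had its 2 highest means at ZT22 and ZT2, and the time courses of the members were not tested against each other. The gene (ENSMUSG00000037610) is on the plus strand at chr3:31902507-32200180. Its level was 17.5, 23.1 and 14.5 CPM at ZT2, 9.89, 11.6 and 14.1 CPM at ZT6, and 8.78, 6.29 and 3.73 CPM at ZT10. At night it was 6.16, 5.34 and 6.08 CPM at ZT14, then 7.52, 6.75 and 0 CPM at ZT18, and 16.6, 15.4 and 15.8 CPM at ZT22. The 6 libraries of ZT22 and ZT2 were all above the other 12, while the library at 0, ZT18 replicate C, allows a level of up to 0.195 CPM (3 reads, counting error only). That library alone makes the ZT18 mean the lowest, as the other 2 ZT18 libraries were above every ZT14 library. With that library the time test did not pass (edgeR adjusted p = 0.144), and without it the test passed (edgeR adjusted p = 0.000453). JTK_CYCLE with its exact null distribution gave p = 8.53e-05 on all 18 libraries, with the peak at ZT2. As *Kcnmb2* did not pass the time test, it was not called cycling.

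The ratio of reads between these beta subunits changed over the day. The ratio of *Kcnmb2* to *Kcnmb4* CPM was 5.73 ± 1.65 at ZT2, 1.30 ± 0.46 at ZT6 and 0.556 ± 0.308 at ZT10 (SD, n = 3). At night it was 0.717 ± 0.174 at ZT14, and it stood at 1.46 ± 1.28 for ZT18 and 2.45 ± 0.36 for ZT22. The 3 ZT2 libraries, from 4.14 to 7.44, lay above all others, and the ZT10 and ZT14 libraries lay below 1, as did ZT6 replicate A (0.887) and ZT18 replicate C (0). These ratios were described and not tested.

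*Kcnmb1*, the beta1 subunit, is best known from smooth muscle, where it raises the calcium sensitivity of BK channels. It was low, and its gene (ENSMUSG00000020155, chr11:33963013-33973641, plus strand) lies inside *Kcnip1* on the other strand without sharing exon bases. The 3 ZT22 libraries held 3.91, 4.96 and 5.84 CPM and the ZT18 libraries 3.42, 1.28 and 7.44 CPM, whereas the remaining 12 libraries held between 0 and 2.83 CPM. ZT6 replicates A and C had no read, which allows up to 0.122 and 0.154 CPM, while ZT6 replicate B held 2.37 CPM. The time test did not pass (edgeR adjusted p = 0.319), but passed without ZT6 replicate B (edgeR adjusted p = 0.00329). The 6 smooth muscle and pericyte markers summed to 492 to 518 CPM at ZT18, 532 to 596 CPM at ZT22 and 511 to 893 CPM at ZT2, against 145 to 418 CPM at the other timepoints. *Rgs5* gives the largest part of this sum, and not all 6 markers followed it. *Tagln*, for one, had means of 34.9 CPM at ZT22, 33.8 CPM at ZT10 (SD 24.8), 33.7 CPM at ZT2 and 25.6 CPM at ZT18. The part of these markers in the level of *Kcnmb1* was not tested. *Kcnmb3*, the remaining beta subunit gene and not a member, had 17 reads in 5 libraries and did not pass the filter.

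Of the SK genes, *Kcnn2* was the most abundant per length and, like *Kcnmb4*, had its high values at ZT6 and ZT10. *Kcnn2* encodes SK2, a pore subunit found widely in neurons, and lies on the plus strand at chr18:45268860-45686024 (ENSMUSG00000054477). Its level was 6.45, 11.5 and 10.5 CPM at ZT2, 18.6, 22.0 and 30.0 CPM at ZT6, and 17.5, 20.1 and 27.4 CPM at ZT10. It was 13.6, 15.7 and 16.1 CPM at ZT14, 7.26, 10.6 and 10.8 CPM at ZT18, and 9.31, 16.4 and 12.3 CPM at ZT22. The 6 libraries of ZT6 and ZT10 were above the other 12 without overlap. *Kcnn2* rose from ZT2 to ZT6 by 1.31 ± 0.31 (log2, SE, edgeR adjusted p = 0.00331). The mean went from 9.49 ± 2.69 CPM at ZT2 to 23.5 ± 5.84 CPM at ZT6 (SD, n = 3), a ratio of 2.48. With *Kcnmb4* it made 2 of 8 members called in this step, where 33.8% of all genes tested were called.

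The high *Kcnn2* values fall on the timepoints whose reads differ between the deposited tables. Behind the normalized table, *Kcnn2* had between 0.648 and 0.769 times the counted reads in the ZT6 and ZT10 libraries, and *Kcnma1* between 0.785 and 0.847 times. *Kcnmb4* had between 0.900 and 0.973 times. With the reads recovered from that table, the *Kcnn2* rise from ZT2 to ZT6 was 1.01 on the log2 scale and its time test still passed (edgeR adjusted p = 0.0467). The summed SCN neuron markers stood at 4712 to 5222 CPM at ZT6 and 4030 to 4703 CPM at ZT10, against 2699 to 4301 CPM at ZT2 and 1520 to 2870 CPM at night. *Vip* gives the largest part of this sum, and not all 8 markers followed it, as *Rorb* had its highest mean at ZT2 (1118 CPM) and its lowest at ZT10 (257 CPM). From ZT2 to ZT6 the mean summed level of the astrocyte markers went from 3609 to 1745 CPM, with 4 of 5 called lower. The oligodendrocyte sum went from 2930 to 1723 CPM, with 3 of 5 called lower and 1 higher. The smooth muscle and pericyte sum went from 664 to 225 CPM, with 2 of 6 called lower. The part of these markers in the levels of *Kcnn2* and *Kcnmb4* was not tested.

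**Figure D2:**
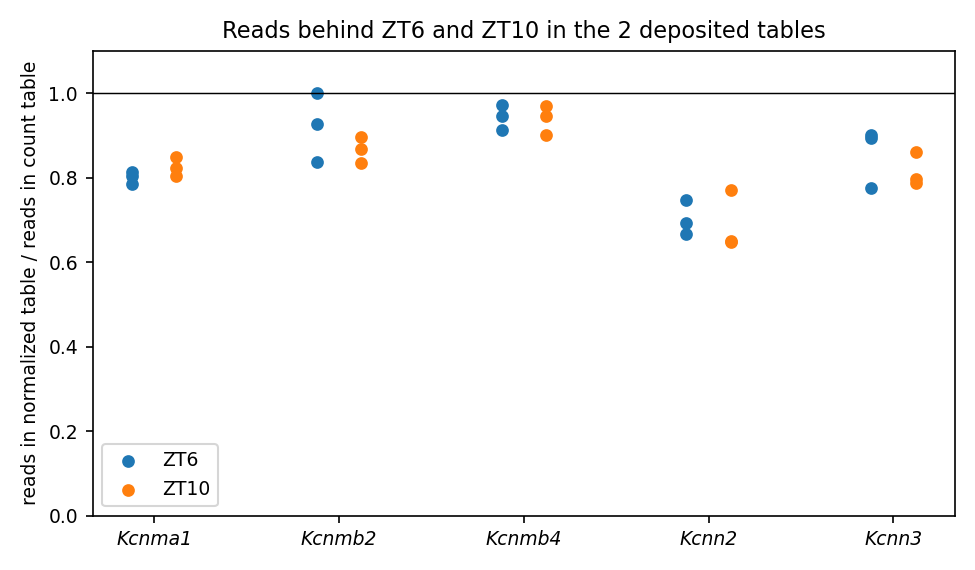
Reads behind the deposited normalized table divided by reads in the count table (y axis, starting at 0) for 5 members, with 1 point per library of ZT6 and ZT10. *Kcnn2* lies lowest, between 0.648 and 0.769, and the line at 1 marks equal reads.

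*Kcnn3*, which encodes SK3 and is known from monoamine neurons and other pacemaking cells, had its highest mean at ZT14, 5.12 ± 1.24 CPM, and its lowest at ZT6, 0.906 ± 0.436 CPM (SD, n = 3). The gene (ENSMUSG00000000794) is on the plus strand at chr3:89520164-89675132. The ZT6 libraries held 1.34, 0.900 and 0.473 CPM, below all other libraries, and the ZT14 libraries 6.44, 3.98 and 4.95 CPM. At ZT10 the libraries ranged from 2.13 to 7.08 CPM and so overlapped those of ZT14. The time test passed narrowly (edgeR adjusted p = 0.0362) and failed on leaving out any of 8 of the 18 libraries in turn, with adjusted p up to 0.0951 by edgeR. The step from ZT6 to ZT10, inside a cluster, was 2.17 ± 0.63 (log2, SE), with an unadjusted p of 0.00297 and an edgeR adjusted p of 0.310.

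*Kcnn1*, which encodes SK1 (ENSMUSG00000002908, chr8:70842049-70863258, minus strand), varied more between replicates than between timepoints. At ZT6 it held 10.6, 0.758 and 0 CPM and at ZT14 6.64, 2.23 and 10.3 CPM, while at ZT2 it held 1.19, 1.16 and 0.925 CPM. The ZT6 libraries spanned the whole range of the 18, and the time test did not pass (edgeR adjusted p = 0.510). Without ZT6 replicate A it passed by a small margin (edgeR adjusted p = 0.0484). *Kcnn4*, the intermediate-conductance channel typical of blood and epithelial cells (ENSMUSG00000054342, chr7:24370263-24386690, plus strand), held 0 to 26 reads per library and was above 0 in 8 of 18. Its highest value was 0.715 CPM in ZT14 replicate C and its mean over all libraries was 0.120 CPM. A time course of *Kcnn4* was not detectable at this depth.

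Over the 8 genes, the time test called *Kcnma1*, *Kcnmb4*, *Kcnn2* and *Kcnn3* (4 of 8, edgeR adjusted p of 0.00300, 0.00678, 0.00415 and 0.0362), where 44.0% of all genes tested were called. *Kcnmb4* (JTK_CYCLE p = 0.0178) and *Kcnn2* (JTK_CYCLE p = 0.0239) also passed JTK_CYCLE with its exact null distribution, both with the peak at ZT10. They were thus called cycling, 2 of 8, against 29.9% of all genes tested. The JTK_CYCLE p is not adjusted over genes here, and 0 of 8 were called with that adjustment, 0 without ZT10 replicate C and 1 (*Kcnn2*) without ZT10 replicate B. Cosinor regression in place of JTK_CYCLE, adjusted over genes, called the same 2 of 8. Its adjusted p was 0.0297 for *Kcnmb4* and 0.0109 for *Kcnn2*. The shares with the main settings, 4 of 8 and 2 of 8, are near the background. The time test over ZT2, ZT14, ZT18 and ZT22 alone, chosen after the difference between the tables was seen, called *Kcnma1* (edgeR adjusted p = 0.0126) and no other member, 1 of 8. *Kcnmb4* then had an adjusted p of 0.0750 and *Kcnn2* one of 0.251 by edgeR, while 27.9% of the 19409 genes in that fit were called.

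The remaining comparisons called none of the 8. By edgeR this was 0 of 8 from ZT6 to ZT10, where 0.0475% of all genes were called and *Kcnn3* had an unadjusted p under 0.05. From ZT10 to ZT14 it was 0 of 8, with 16.8% of all genes called and no member at an unadjusted p under 0.05. From ZT14 to ZT18 it was 0 of 8, with 0.57% of all genes called, although *Kcnma1*, *Kcnmb4* and *Kcnn2* all had lower means at ZT18 and unadjusted p under 0.05. DESeq2 called *Kcnn3* in the first and *Kcnma1* in the last of these 3 steps. The shares of all genes given here are those of edgeR with TMM scaling, not of DESeq2. From ZT22 to ZT2 it was 0 of 8, with 0.0317% called, and *Kcnmb4* had a log2 difference of -1.02 ± 0.39 and an unadjusted p of 0.0175. Night against day called 0 of 8 by edgeR with TMM scaling against 23.8%, and *Kcnn2* came nearest with a log2 difference of -0.47 ± 0.18 (SE, edgeR adjusted p = 0.0636, unadjusted p = 0.0168). DESeq2 called *Kcnn2* in that comparison, as did edgeR with DESeq2 size factors, with upper-quartile scaling, with at least 10 counts in every replicate and with the replicate block. In the contrast of ZT14 and ZT22 with ZT18 and ZT2, 0 of 8 were called against 0.148%. *Kcnma1*, *Kcnmb4* and *Kcnn2* had unadjusted p under 0.05 there, and DESeq2 called *Kcnmb4*. The median of all genes tested was itself 0.12 from ZT10 to ZT14 and 0.13 from day to night on the log2 scale, and between -0.04 and 0.03 in the other comparisons.

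**Figure D3:**
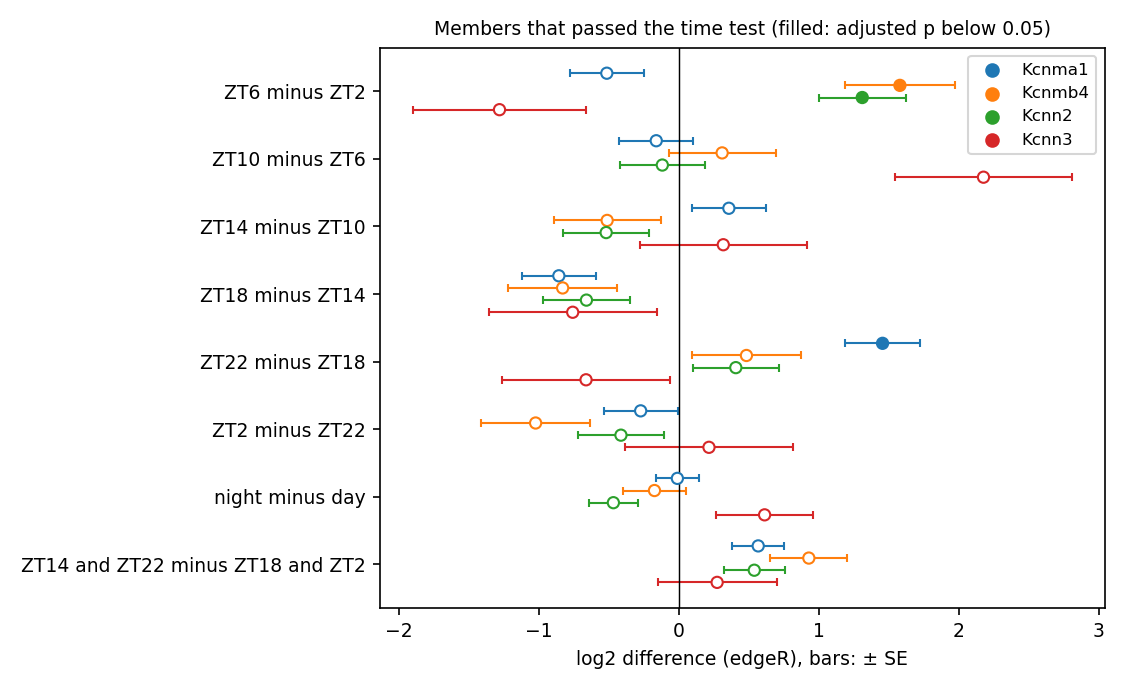
Log2 differences (x axis, bars are ± SE) for the 4 members that passed the time test in the 8 comparisons (y axis), with filled symbols for an edgeR adjusted p below 0.05. Filled are *Kcnmb4* and *Kcnn2* at ZT6 minus ZT2, at 1.58 and 1.31, and *Kcnma1* at ZT22 minus ZT18, at 1.45.

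Since a ratio inside a library does not depend on scaling between libraries, each member with a mean of at least 1 CPM was set against *Kcnma1*. *Kcnma1* was 28.2 times *Kcnmb4* in CPM at ZT2, then 7.15 and 4.86 times at ZT6 and ZT10, and 8.90, 10.95 and 16.5 times at ZT14, ZT18 and ZT22 (means of n = 3). The ZT2 libraries, from 25.2 to 34.0, were above all others, and ZT18 replicate C, at 2.97, was the lowest of all. *Kcnma1* was 9.94 times *Kcnn2* at ZT2 and 8.74 times at ZT22, but 2.89 and 2.73 times at ZT6 and ZT10. The 6 libraries of ZT22 and ZT2 ranged from 8.03 to 12.3 and were all above the other 12. These are ratios of reads and not of molecules, as the transcripts differ in length.

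Night and day were then compared in these ratios by exact permutation tests (two-sided, 9 night against 9 day libraries) for 6 members, and none passed after adjustment over the 6. The tests treat the 9 libraries of a phase as alike, although they come from different timepoints. Within the day, the mean log2 ratio of *Kcnmb4* to *Kcnma1* was -4.60 at ZT2 and -2.21 at ZT10. The largest night-minus-day differences on the log2(CPM + 0.5) scale were 1.17 for *Kcnmb1* (exact p = 0.0441, adjusted 0.140, with 8 of 9 night libraries above the day mean) and 1.04 for *Kcnn1* (exact p = 0.0633, adjusted 0.140, 7 of 9). *Kcnmb2* differed by -0.68 (exact p = 0.0699, adjusted 0.140), with 1 of 9 night libraries above the day mean, and by -0.40 without ZT18 replicate C, which held no *Kcnmb2* read. *Kcnn3*, *Kcnn2* and *Kcnmb4* differed by 0.55, -0.40 and -0.15, with exact p of 0.240, 0.330 and 0.754. Leaving out 1 library moved the *Kcnmb4* value to between -0.37 (without ZT18 replicate C) and 0.0018 (without ZT10 replicate C), and the *Kcnn2* value to as little as -0.24 (without ZT6 replicate C). The added 0.5 CPM lets the scaling between libraries enter these tested ratios, most of all for low genes. With 0.1 CPM added instead, the differences were 1.71 for *Kcnmb1*, 1.40 for *Kcnn1* and -0.94 for *Kcnmb2*. Each of these had an adjusted permutation p of 0.151.

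**Figure D4:**
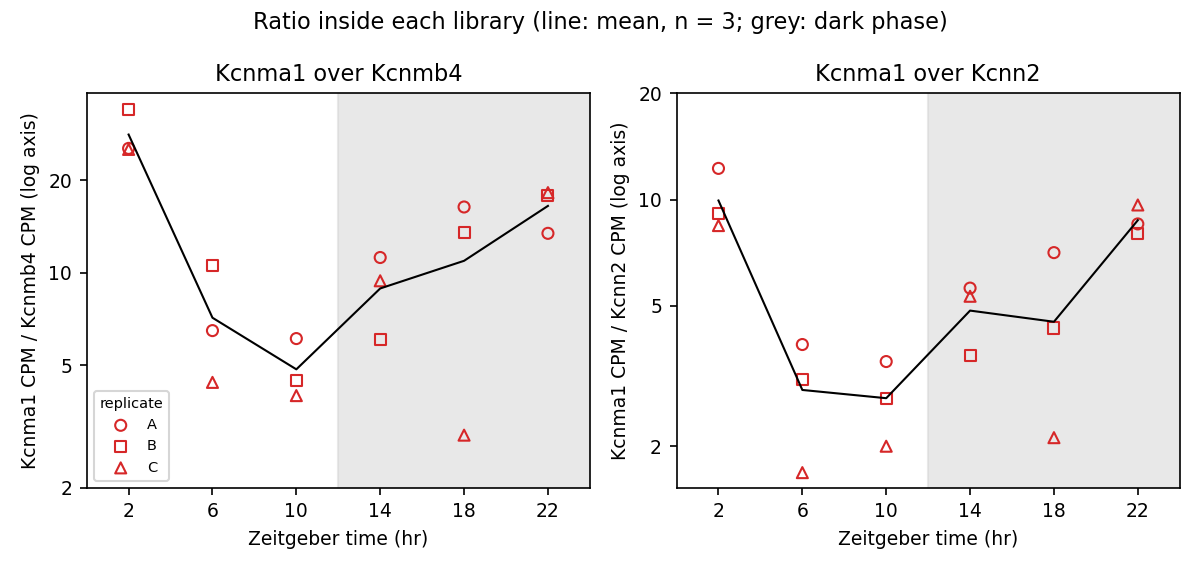
*Kcnma1* CPM divided by *Kcnmb4* CPM (left) and by *Kcnn2* CPM (right) in each library, on a log axis, against Zeitgeber time in hours. Lines join the means of 3 libraries and grey is the dark phase. Both ratios are highest at ZT2, at 28.2 and 9.94, and lowest at ZT10, at 4.86 and 2.73.

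For an order of levels between genes, values were taken per length, as CPM per kb of the union of a gene's annotated exons. *Kcnma1* had 4.26 ± 1.59, *Kcnmb2* 3.36 ± 1.89, *Kcnmb4* 2.24 ± 1.03 and *Kcnn2* 2.05 ± 0.87 CPM per kb (SD over all 18 libraries, which includes the differences between timepoints). *Kcnn1* followed with 0.749 ± 0.680, *Kcnmb1* with 0.547 ± 0.503, *Kcnn3* with 0.276 ± 0.178 and *Kcnn4* with 0.0235 ± 0.0408. *Kcnma1* was above *Kcnmb2* in 14 of 18 libraries and below it in ZT2 replicates A and B, ZT6 replicate C and ZT22 replicate A. *Kcnma1* was also below *Kcnmb4* in ZT6 replicate C, ZT10 replicates B and C and ZT18 replicate C. It was below *Kcnn2* in replicate C of ZT6, ZT10 and ZT18, and below *Kcnmb1* in ZT18 replicate C. *Kcnmb2* was above *Kcnmb4* in 10 of 18, *Kcnmb4* above *Kcnn2* in 12, and *Kcnn2* above *Kcnn1* in 16. *Kcnn1* was above *Kcnmb1* and *Kcnmb1* above *Kcnn3* in 10 of 18 each, but by timepoint *Kcnn1* was above *Kcnmb1* in all ZT10 and ZT14 libraries and below it in all ZT22 libraries. *Kcnmb1* was above *Kcnn3* in all ZT18 and ZT22 libraries and below it in all ZT14 libraries. The order of *Kcnmb2*, *Kcnmb4* and *Kcnn2* also varied over the 18 libraries, and that spread pools the timepoints, as all ZT2 libraries had more *Kcnmb2* than *Kcnmb4* reads and all ZT10 libraries fewer. Per length of the longest transcript, *Kcnmb4* (4.58) and *Kcnn2* (4.17) came above *Kcnmb2* (3.60), with *Kcnma1* (5.98) still highest. The comparisons by library above rest on the union of exons. Some turn round by the longest transcript, as *Kcnma1* was then above *Kcnmb2* in ZT2 replicates A and B. Which transcripts were present was not measured here.

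**Figure D5:**
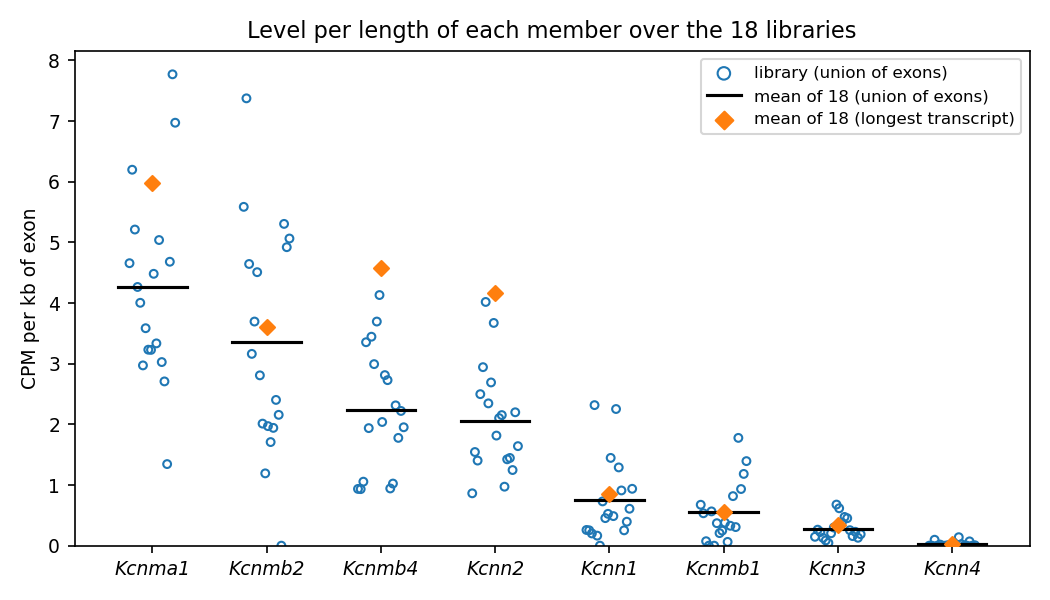
CPM per kb of exon (y axis, from 0) of the 8 genes in order of their mean. Circles are the 18 libraries and bars their mean, both over the union of exons, and diamonds are the mean over the longest transcript. In the mean over all timepoints *Kcnma1* leads by both lengths, at 4.26 and 5.98, but not in every library.

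Among the auxiliary gamma subunits of BK channels, which shift its opening to lower voltages, 3 of 4 genes were tested and 1 passed the time test. *Lrrc55*, with the most reads of the list, had a mean of 12.4 CPM, with 18.3 ± 2.54 CPM at ZT14 and 6.01 ± 1.93 CPM at ZT10 (SD, n = 3, edgeR adjusted p = 0.0579 for time). The gene that passed, *Lrrc38*, had a mean of 0.397 CPM and was listed at 0 in all ZT6 libraries. None of 3 relatives of the BK pore (*Kcnt1*, *Kcnt2* and *Kcnu1*) passed the time test, which gave edgeR adjusted p from 0.0669 to 0.394.

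The calcium that opens these channels enters through voltage-gated channels or leaves internal stores. Of 9 pore genes of plasma membrane calcium channels, 4 passed the time test and 2 were called cycling, where the shares of all genes tested were 44.0% and 29.9%. *Cacna1g*, a T-type channel, was highest at ZT6, at 67.4 ± 15.7 CPM, and lowest at ZT22, at 9.75 ± 1.32 CPM (SD, n = 3, edgeR adjusted p = 7.37e-07). *Cacna1e*, the R-type channel, was highest at ZT14, at 69.8 ± 10.7 CPM (edgeR adjusted p = 0.000480). *Cacna1b* (N-type, adjusted p = 0.316) and *Cacna1d* (L-type, adjusted p = 0.148) did not pass by edgeR. Of 6 calcium release channels, 4 passed the time test and 1 was called cycling, beside the same 44.0% and 29.9% of all genes tested. *Itpr1*, the inositol trisphosphate receptor, held 261 ± 32.0 CPM at ZT14 against 84.5 ± 9.24 at ZT18 and 160.5 ± 47.6 at ZT22 (SD, n = 3), and *Ryr2*, a ryanodine receptor, 38.1 ± 3.89, 11.3 ± 4.17 and 50.2 ± 24.8 CPM. Both fell from ZT14 to ZT18, inside a cluster, with log2 differences of -1.63 (edgeR adjusted p = 0.0242) for *Itpr1* and -1.75 (edgeR adjusted p = 0.0492) for *Ryr2*. The telencephalic excitatory neuron markers had a median log2 difference of -1.52 in the same step, and their part in these falls was not tested.

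Of 8 genes for calmodulin and for the kinase CK2 and phosphatase PP2A that bind SK channels, 6 passed the time test and 4 were called cycling. Of all genes tested, 29.9% were called cycling. *Calm2* was highest at ZT22, at 4289 ± 810 CPM, and lowest at ZT18, at 2132 ± 184 CPM (SD, n = 3). *Calm3* was highest at ZT6, at 812 ± 44.9 CPM, and lowest at ZT2, at 229.9 ± 30.6 CPM. *Calm2* and *Calm3* encode the same protein, and their highest means fell at different timepoints. The shares of these lists that passed the time test, 1 of 3, 0 of 3, 4 of 9, 4 of 6 and 6 of 8, stand beside 44.0% of all genes tested.

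The genes most like each called member were found by the root mean square difference of log2 levels, centred per gene, over the 18 libraries and among 11133 genes of at least 5 CPM. For *Kcnma1* these were *Atmin*, *Nceh1* and *Ppm1l*, at 0.23, 0.24 and 0.25, where the median gene was at 0.78. For *Kcnn2* they were *Slc12a5*, *Ctdnep1* and *Rab11fip2*, at 0.24, 0.26 and 0.27, and for *Kcnmb4* they were *Ift57*, *Slc12a5* and *Dnm1*, at 0.38, 0.38 and 0.40. *Slc12a5*, the neuronal chloride exporter, thus stood near both, with 52.4 CPM at ZT2 and 116.7 CPM at ZT6. For *Kcnn3* they were *Ptcd1*, *Vstm5* and *Izumo1*, at 0.44, 0.56 and 0.58, where the median gene was at 1.07. These likenesses are descriptions over the same 18 libraries, and each gene's values share the depth of a library.

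Promoter windows of 250 bases before the annotated start were taken from RefSeq on GRCm38.p6 for 7 members, with 2 windows for *Kcnn1*. *Kcnn2* was not searched. The RefSeq starts are not always the outer ends of the GENCODE spans given above: the windows of *Kcnma1* and *Kcnmb4* and 1 window of *Kcnn1* lie inside those spans, and that of *Kcnmb2* lies partly inside. They were searched on both strands for an E-box (CACGTG), the CRE (TGACGTCA) and a D-box (TTATGTAA or TTACGTAA), the elements read by clock factors and by calcium and cAMP signalling. None of the windows of *Kcnma1*, *Kcnmb1*, *Kcnmb2*, *Kcnmb4*, *Kcnn1* and *Kcnn3* held any of these motifs, which says only that these letters are not in these windows. *Kcnn4*, the member that was hardly detected, had 1 E-box whose first base lies 133 bases before the start, at chr7:24370120-24370145 with its flanks (plus strand, E-box in capitals), and it is shown as the only match:
Kcnn4 E-box: tgtctttgccCACGTGgatgaactct
Of the 32851 RefSeq windows searched, 6.02% held the E-box, 1.55% the CRE and 0.93% a D-box.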

How the data were processed

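RNA from 18 pools of laser-captured SCN tissue, 3 per timepoint, was compared across 6 timepoints. Per the labels, the RNA was polyA RNA that was amplified before library preparation. The deposited table of counts holds whole reads per Ensembl gene for 30031 genes without normalization, with the 3 technical replicates of each pool combined by the authors. The submitters' processing notes name GSNAP, HTSeq 0.5.4p1, DESeq2 and the builds mm10 and GRCm38. A second table deposited by the authors holds normalized signal for 31077 genes, reads divided by a size factor per library, and 100% of its values were whole multiples of a step (tolerance 0.1 read), so its reads were recovered as an alternative. At ZT6 and ZT10 these reads are not those of the count table. 0 columns were left unused. Whether counting used strand is not given in the sources used here.

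The tests covered the 18941 genes that had 1 read or more in over 6 libraries. edgeR 4.0.16 in R 4.3.3 gave TMM-scaled CPM and quasi-likelihood F-tests of time and of 8 contrasts from 1 fit to 18 libraries, with Benjamini-Hochberg adjustment over all genes and a threshold of 0.05. JTK_CYCLE (period 24 hr, 6 lags) was rewritten in Python 3.11.15 with scipy 1.17.1. A gene was called cycling when both tests were under 0.05. Ratios were compared by exact permutation tests. Alternatives were DESeq2 1.42.0, its size factors, upper-quartile scaling, other filters, cosinor regression in limma 3.58.1, the replicate letter as a block, another pseudocount of 0.1 CPM for the ratios, leaving out each library, and, added after seeing the data, a fit without ZT6 and ZT10. The fits and JTK_CYCLE were tested on simulated data. GENCODE M21 on GRCm38 gave positions, exon lengths and a symbol for 97.4% of identifiers.

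All 8 members are named, with Kcnmb3. Of the lists of related genes, up to 4 with the highest mean CPM could be named, and Lrrc38 was named as the 1 gene of its list that passed. The values of 1 gene of these lists are not reported here. The members and lists were chosen with earlier results of these data known. Replicates of a timepoint differed by more than counting noise, with a chi-square per gene of 31.8 to 143.9 over 18 pairs. The total reads per library limit precision for low genes, and intervals and floors cover counting error only.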

Additional observations from a re-analysis of the deposited data

Results flagged for a closer look

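In the ratio of *Kcnmb2* to *Kcnma1* over the 9 night libraries, ZT18 replicate C lay far from the others, at -5.54 on the log2 scale, where the nearest night library was at -3.71. The gap was 0.553 of the whole range. This library had no *Kcnmb2* read, so its value is set by the pseudocount of 0.5 CPM. In 12 sets of 9 libraries tested this way it was the only one found, and chance alone marks about 1 in 20 such groups.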

How the results depend on the processing

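*Kcnma1*, *Kcnmb4* and *Kcnn2* passed the time test in all 18 fits that left out 1 library and in 7 other fits. In the fit over ZT2, ZT14, ZT18 and ZT22, added after seeing the data, 1 member (*Kcnma1*) was called, and *Kcnmb4* and *Kcnn2* did not pass. The count of members called over time was 3 to 5 on leaving out a library and 3 with the replicate block, where *Kcnn3* did not pass (edgeR adjusted p = 0.0586). *Kcnn3* also did not pass with upper-quartile normalization (edgeR adjusted p = 0.0520, 3 members called) or without a filter (edgeR adjusted p = 0.0958). Replicate letters did not pair the libraries: deviations of same-letter libraries correlated between -0.129 and 0.0700 over 45 pairs, and 6 of 18 libraries correlated best with their own letter. *Kcnmb2* passed the time test with DESeq2 (adjusted p = 0.0243) and without a filter (edgeR adjusted p = 0.0389). With DESeq2, the members called were 1 from ZT6 to ZT10, 1 from ZT14 to ZT18, 2 from ZT18 to ZT22 and 1 in the contrast of ZT14 and ZT22 with ZT18 and ZT2. Shares of all genes called are given only for the main settings and for the fit over ZT2, ZT14, ZT18 and ZT22. The counts of members from the other fits therefore have no background beside them. On leaving out a library the count from ZT18 to ZT22 was 1 to 2, being 2 without ZT18 replicate C. Night against day called 1 member (*Kcnn2*) with DESeq2, DESeq2 size factors, upper-quartile normalization, at least 10 counts in every replicate or the replicate block. It called 0 to 2 on leaving out a library, being 2 (*Kcnn1* and *Kcnn2*) without ZT6 replicate A 1 (*Kcnmb1*) without ZT6 replicate B, and 1 (*Kcnn2*) without ZT2 replicate A, ZT18 replicate C or ZT22 replicate B. With cosinor regression in place of JTK_CYCLE, 2 members (*Kcnmb4* and *Kcnn2*) were called cycling. Members called cycling were 0 when the JTK_CYCLE p was adjusted over genes as well, and 0 to 3 on leaving out a library, being 1 (*Kcnn2*) without ZT10 replicate B and 0 without ZT10 replicate C. The cause was not tested. The 3 differences called with the main settings (*Kcnma1* from ZT18 to ZT22, *Kcnmb4* and *Kcnn2* from ZT2 to ZT6) kept their direction in the 25 other fits that gave them. Upper-quartile scaling moved the median of all genes by -0.15 from ZT10 to ZT14 and by 0.15 from ZT18 to ZT22 (log2). At under 5 CPM, *Kcnmb1*, *Kcnn1*, *Kcnn3* and *Kcnn4* rest on few reads per library.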
